A study of Mus musculus with 12 samples.

Results

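The comparison described here is that of wild-type (WT) mice on a high fat diet with WT mice on normal chow, in hind limb skeletal muscle. Its members were chosen by sample title, 3 samples titled as floxed mice on high fat and 3 titled as floxed mice on control diet, which is 6 of the 12 samples of the series. All mice were of the FVB strain in the labels (FVB/N in the study's methods) and 22 weeks of age, and by those methods they were males. The WT mice were littermates of mice lacking both αB-crystallin and HspB2 (KO), and the KO mice on each diet make up the other 6 samples. No deletion or agent other than the diet distinguishes the WT groups in the titles. The genotype field of all 3 WT samples on high fat diet reads as knockout, against their titles, so the targeted genes were examined first. RNA came from the proximal hind limb, which holds several muscles, and neither the labels nor the methods say how many animals went into a library.

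Muscle takes up fatty acids from blood lipids through membrane carriers, binds them to a cytosolic binding protein, couples them to coenzyme A and moves them into mitochondria as carnitine esters. There they are shortened by β-oxidation, whose electrons enter the respiratory chain through the electron transfer flavoprotein. The nuclear receptors of the PPAR family, which bind fatty acids, are known to raise the transcription of many of these genes, and Pdk4, which they also raise, holds back the entry of glucose carbon into the citric acid cycle.

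Cryab, which encodes αB-crystallin, was present at 561, 536 and 412 FPKM in the normal chow samples and at 650, 837 and 731 FPKM in the high fat samples. FPKM is the number of sequenced fragments scaled to transcript length and to library size, so levels can be compared between genes. Hspb2 lay between 81.5 and 103 FPKM in all 6 samples. In the 6 KO samples Cryab ranged from 0.845 to 1.75 FPKM and Hspb2 from 0.353 to 1.92 FPKM, so the 3 samples whose genotype field conflicts carried the levels of the WT samples. Cryab did not pass the adjusted threshold for diet (log2 fold change 0.56 ± 0.17, SE, adjusted p = 0.274 by limma), although the groups did not overlap. Here and below a log2 fold change is high fat minus normal chow on the scale log2(FPKM + 1), which understates changes of genes with low values.

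The samples carried the genes of fast skeletal muscle at high levels. Tnnc2, fast troponin C, was at 14082 to 20243 FPKM and Ckm, muscle creatine kinase, at 18104 to 25896 FPKM. Acta1, skeletal actin, was listed at 0 in normal chow replicate 1 and at 28311 to 35165 FPKM in the other 5, and Ldb3, a Z-disc protein, was likewise listed at 0 in that sample alone. These 2 genes were singled out after their values were seen, and their zeros are listed values, not a measured absence. Several WT samples stood apart from the other WT samples in genes of other tissues. Genes of T cells, B cells and lymph nodes were high in normal chow replicate 2. So were the brown fat genes Ucp1 and Cidea, although the summed level of all 10 listed brown fat genes was not. Genes of Schwann cells were high in normal chow replicate 3, keratins in high fat replicate 2, and osteocalcin genes in high fat replicate 3. Spearman correlations between WT samples over genes were at least 0.9697. Of the KO samples, normal chow replicate 3 had an FPKM total of 10656382, of which the single row of Mir324, a microRNA gene, made up all but 484182.

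Of 22923 gene symbols, 11945 reached 1 FPKM in at least 3 of the 12 samples and were tested. At a Benjamini-Hochberg adjusted p of 0.05 in limma, 12 genes differed between diets, 0.1% of those tested, and 6 of them rose and 6 fell. Without adjustment, 970 genes (8.12%) had a p under 0.05, and of these 528 (4.42%) were higher with high fat feeding and 442 (3.7%) were lower. The median log2 fold change of all tested genes was -0.01. The number of genes past the adjusted threshold depended on single samples. It was 1 without normal chow replicate 1, 1 without normal chow replicate 2, 7 without normal chow replicate 3 and 32 without high fat replicate 2. It was 24, with all 12 genes among them, without the KO sample normal chow replicate 3, an alternative chosen after the data were seen. When only the 6 WT samples were fitted 3 genes passed, 2 of them among the 12, and with the replicate number as a block BC048679 alone passed.

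The largest rise among the 12 was that of BC048679, a protein-coding gene with no assigned function. It was at 1.38, 2.23 and 1.67 FPKM on normal chow and at 21.9, 19.8 and 18.2 FPKM on high fat diet. Its mean was 11.3-fold higher (log2 fold change 2.93 ± 0.25, SE, adjusted p = 0.00202 by limma). The gene passed the threshold with each of the 6 samples left out in turn, which held for no other gene.

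Ech1 encodes a dienoyl-CoA isomerase that acts on unsaturated fatty acids in mitochondria and peroxisomes. It was at 147, 152 and 145 FPKM on normal chow and at 278, 243 and 239 FPKM on high fat diet (log2 fold change 0.77 ± 0.09, SE, adjusted p = 0.0125 by limma). Decr1, the mitochondrial dienoyl-CoA reductase that also serves unsaturated fatty acids, was at 54.3, 54.7 and 50.6 FPKM on normal chow and at 117, 88.4 and 91.2 FPKM on high fat diet (log2 fold change 0.87 ± 0.11, SE, adjusted p = 0.0183). Both are auxiliary enzymes of β-oxidation, and in both every high fat sample lay above every normal chow sample, with high fat replicate 1 the highest. Dhrs4, a peroxisomal reductase of retinal and other carbonyl compounds, was at 25.8, 26.9 and 21.8 FPKM against 49.7, 41.8 and 42.9 FPKM (log2 fold change 0.83 ± 0.11, SE, adjusted p = 0.0215). Chodl, the membrane lectin chondrolectin, was at 1.76, 1.96 and 2.07 FPKM against 5.88, 5.92 and 5.22 FPKM (log2 fold change 1.19 ± 0.15, SE, adjusted p = 0.0163). Hoxa10, a homeobox transcription factor, was at 4.97, 5.65 and 5.93 FPKM against 10.1, 9.61 and 7.84 FPKM (log2 fold change 0.64 ± 0.10, SE, adjusted p = 0.043).

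The 6 genes that fell had levels under 15 FPKM in every WT sample. Gadl1, a decarboxylase of acidic amino acids that takes part in making β-alanine and carnosine, was at 8.24, 6.18 and 7.63 FPKM on normal chow and at 1.61, 3.09 and 2.96 FPKM on high fat diet (log2 fold change -1.25 ± 0.18, SE, adjusted p = 0.0313 by limma). Npnt, the extracellular integrin ligand nephronectin, was at 7.73, 7.34 and 3.98 FPKM against 0.704, 1.38 and 1.85 FPKM (log2 fold change -1.66 ± 0.26, SE, adjusted p = 0.0492). It had the largest fall and the adjusted p nearest to the threshold of the 12 genes. Rhbdl3, a member of the rhomboid family of membrane proteins, was at 8.82, 6.90 and 6.60 FPKM against 1.95, 2.92 and 2.40 FPKM (log2 fold change -1.30 ± 0.15, SE, adjusted p = 0.0134).

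Cd28, known as the co-stimulatory receptor of T cells, was at 3.78, 3.61 and 2.99 FPKM on normal chow and at 0.386, 1.30 and 0.907 FPKM on high fat diet (log2 fold change -1.28 ± 0.16, SE, adjusted p = 0.0181 by limma). Its level did not follow that of Cd3e, a subunit of the T cell receptor complex. Cd3e was at 6.46 FPKM in normal chow replicate 2 and at no more than 0.269 FPKM in the other 5 samples. The gene 2610019F03Rik, named Tdrp in the annotation, was at 14.3, 12.7 and 13.0 FPKM against 5.08, 5.29 and 8.02 FPKM (log2 fold change -1.03 ± 0.15, SE, adjusted p = 0.0362). Arsi, a member of the arylsulfatase family, was at 2.31, 2.26 and 1.71 FPKM against 0.555, 0.916 and 0.834 FPKM (log2 fold change -0.81 ± 0.11, SE, adjusted p = 0.029). The groups did not overlap in any of the 12 genes, where 13.1% of all tested genes had groups that did not overlap. The 12 were chosen by p-values from these same samples, which favours such groups, so this is no separate evidence.

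**Figure D1:**
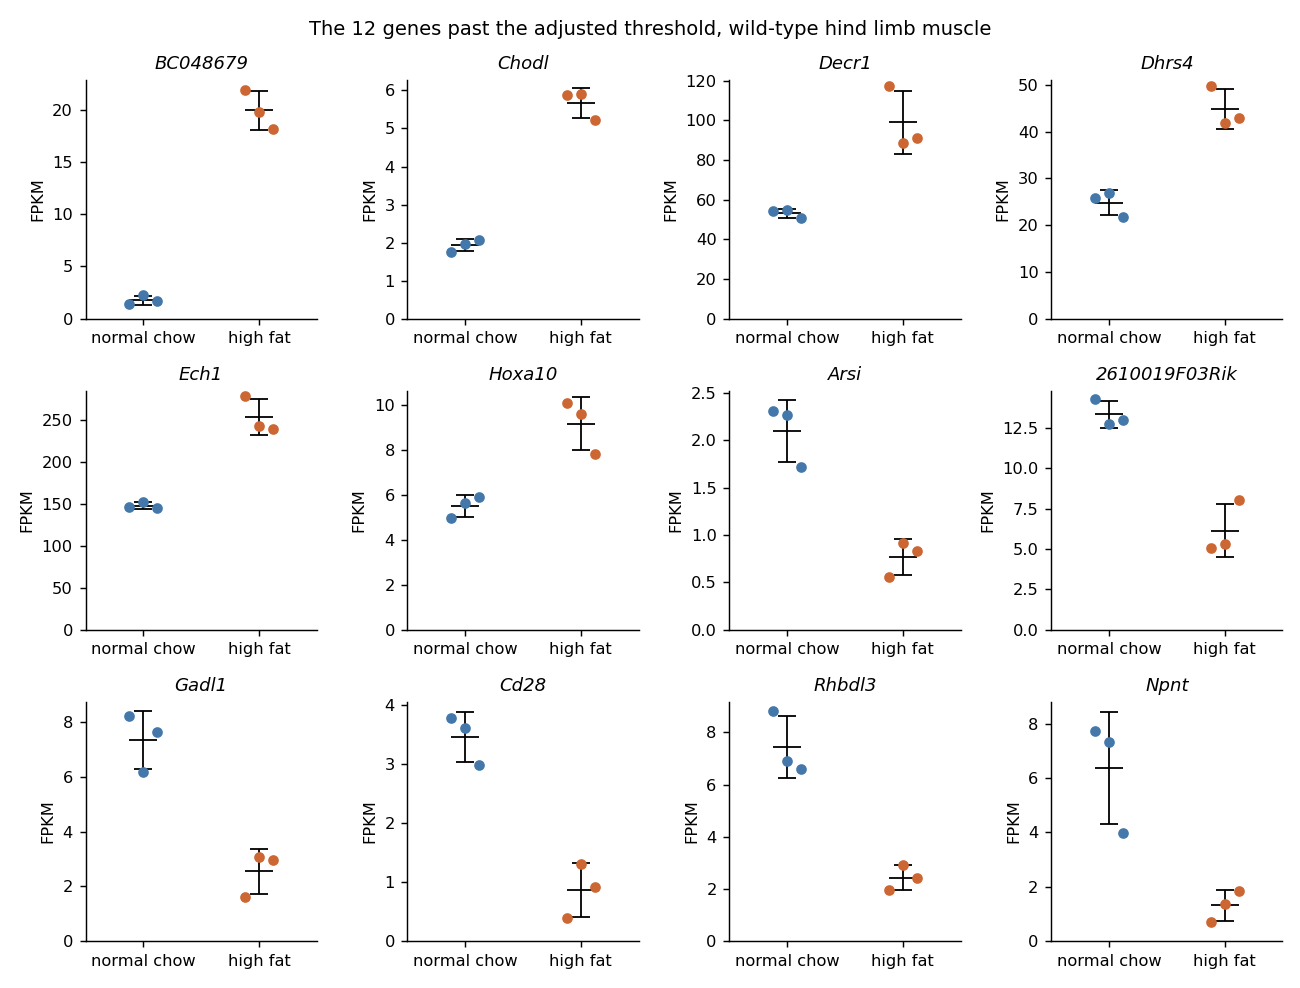
FPKM of the 12 genes past the adjusted threshold in the 3 normal chow (blue) and 3 high fat (orange) WT samples, with the mean and SD as bars, each panel from 0 on its own scale. BC048679 went from 1.38 to 2.23 FPKM on normal chow to 18.2 to 21.9 FPKM on high fat diet, and in no panel do the groups overlap.

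In the GENCODE M21 annotation of GRCm38, which is the mm10 build, BC048679 spans 81494275 to 81498281 of chromosome 7 (minus strand) and Ech1 28825217 to 28832247 of the same chromosome (plus strand). Decr1 lies on chromosome 4 from 15917240 to 15945507, minus strand, and Dhrs4 on chromosome 14 from 55478758 to 55490340, plus strand. Chodl is on chromosome 16 from 78930948 to 78951733, Hoxa10 on chromosome 6 from 52231197 to 52240854, Gadl1 on chromosome 9 from 115909455 to 116076176, Rhbdl3 on chromosome 11 from 80300912 to 80355955, Npnt on chromosome 3 from 132881745 to 132950291, and Cd28 on chromosome 1 from 60716800 to 60773359. All are annotated as protein coding.

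Upstream sequences of 3 genes are shown, the gene with the largest rise and 2 members of the fatty acid lists described next that held a nuclear receptor half-site. They are the 250 bases before the RefSeq start site in GRCm38.p6, for BC048679 (chr7:81498331-81498580, minus strand), for Slc25a34, a mitochondrial carrier (chr4:141623835-141624084, minus strand), and for Ucp3, the muscle uncoupling protein (chr7:100472741-100472990, plus strand). Capitals mark the nuclear receptor half-site AGGTCA or its reverse complement TGACCT.
BC048679: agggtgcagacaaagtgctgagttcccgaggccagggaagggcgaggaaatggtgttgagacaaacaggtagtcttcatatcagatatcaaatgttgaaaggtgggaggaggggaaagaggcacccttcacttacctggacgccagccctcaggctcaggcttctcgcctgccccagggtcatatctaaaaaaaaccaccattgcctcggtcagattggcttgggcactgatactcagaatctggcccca
Slc25a34: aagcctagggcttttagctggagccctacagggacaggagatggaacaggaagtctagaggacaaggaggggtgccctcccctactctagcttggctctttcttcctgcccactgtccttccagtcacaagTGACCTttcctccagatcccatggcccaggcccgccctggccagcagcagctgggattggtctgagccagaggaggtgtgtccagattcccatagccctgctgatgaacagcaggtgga
Ucp3: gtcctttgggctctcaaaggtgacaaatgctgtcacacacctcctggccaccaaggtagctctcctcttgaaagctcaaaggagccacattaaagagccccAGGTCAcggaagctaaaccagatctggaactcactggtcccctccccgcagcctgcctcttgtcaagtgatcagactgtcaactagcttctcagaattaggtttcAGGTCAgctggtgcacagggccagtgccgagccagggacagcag
The half-site was found on either strand 1 time in the window of Slc25a34, 2 times in that of Ucp3 and not in that of BC048679. Of 37 tested genes of fatty acid use described next, 31 had a window, and 9 of these (29.0%) held the half-site, where 15.8% of all 27025 genes with windows did. A match describes letters only.

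The genes of fatty acid uptake and β-oxidation were higher on high fat diet as a group. All 23 tested members had a positive log2 fold change, where 46.4% of all tested genes did, and their median was 0.68. Unadjusted p was under 0.05 for 21 of the 23, all higher, against 4.42% of all genes in that direction, and 1 of them, Decr1, passed the adjusted threshold. The groups did not overlap in 20 of the 23 genes, against 6.2% of all genes in that direction. The summed FPKM of the list was 3096, 2982 and 2539 in the normal chow samples and 6507, 4964 and 4778 in the high fat samples. It was highest in high fat replicate 1. With that sample left out the median was 0.49 and 18 members had an unadjusted p under 0.05, all of them among the 21.

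Among the carriers and binding proteins, Fabp3, the fatty acid binding protein of heart and muscle cytosol, had the largest difference. It was at 491, 481 and 311 FPKM on normal chow and at 1878, 1491 and 1281 FPKM on high fat diet, 3.62-fold higher on average (log2 fold change 1.87 ± 0.33, SE, adjusted p = 0.0802 by limma). Slc27a1, a fatty acid transport protein of the plasma membrane, was at 25.9, 30.8 and 24.4 FPKM against 62.3, 53.5 and 50.4 FPKM (log2 fold change 1.01 ± 0.19, SE, adjusted p = 0.0911). In both genes the lowest high fat sample was well above the highest normal chow sample. Cd36, the fatty acid translocase, was at 130, 179 and 157 FPKM against 209, 195 and 231 FPKM (log2 fold change 0.45 ± 0.16, SE, adjusted p = 0.392). Slc27a4, a related transport protein, was at 4.98 to 5.48 FPKM in all 6 samples, and its log2 fold change of 0.01 was the smallest of the list. Acsl1, which couples fatty acids to coenzyme A, had a log2 fold change of 0.43, and of the carnitine steps Cpt2 had 0.61 and the carrier Slc25a20 0.78.

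The dehydrogenases of β-oxidation differ in the chain length that they accept. Acadl, for long chains, was at 154, 144 and 112 FPKM on normal chow and at 397, 268 and 266 FPKM on high fat diet (log2 fold change 1.17 ± 0.22, SE, adjusted p = 0.0906 by limma). Acadvl, for very long chains, was at 200, 181 and 165 FPKM against 407, 251 and 258 FPKM, or 0.71 as a log2 fold change. Acadm, for medium chains, had a log2 fold change of 0.68 and Acads, for short chains, of 0.43. All 4 had every high fat sample above every normal chow sample, and in all 4 high fat replicate 1 was the highest. The subunits of the trifunctional protein moved by 0.68 (Hadha) and 0.69 (Hadhb), the thiolase Acaa2 by 0.89, the isomerases Eci1 by 0.83 and Eci2 by 0.69, and the flavoprotein subunits Etfa by 0.38 and Etfb by 0.63 on the log2 scale, none of them past the adjusted threshold.

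A list of genes known to be raised by PPAR activity in fasting held 18 genes, of which 14 were tested. Their median log2 fold change was 0.54, 8 of the 14 were higher at unadjusted p under 0.05, against 4.42% of all genes, none was lower, and Ech1 passed the adjusted threshold. Pdk4, the pyruvate dehydrogenase kinase, was at 111, 106 and 96.5 FPKM on normal chow and at 316, 399 and 183 FPKM on high fat diet (log2 fold change 1.44 ± 0.33, SE, adjusted p = 0.137 by limma). Plin5, which ties lipid droplets to mitochondria, was at 7.66, 10.3 and 5.80 FPKM against 26.7, 22.1 and 18.6 FPKM (log2 fold change 1.41 ± 0.26, SE, adjusted p = 0.0885). Slc25a34, whose upstream window is shown above, was at 4.31, 4.96 and 2.95 FPKM against 15.2, 11.00 and 10.04 FPKM (log2 fold change 1.37 ± 0.24, SE, adjusted p = 0.0802). Each of these 3 genes was at least 2-fold higher in its mean, with no overlap between the diets.

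Other genes of the list did not separate the diets. Ucp3 was at 64.3, 51.1 and 53.9 FPKM against 93.8, 93.0 and 63.3 FPKM, so high fat replicate 3 fell within the normal chow range. Plin2, the general lipid droplet coat, had a log2 fold change of -0.04, and Angptl4, a secreted inhibitor of lipoprotein lipase, varied from 2.50 to 15.7 FPKM on normal chow and from 4.49 to 21.9 FPKM on high fat diet. Fgf21, Cyp4a10, Vnn1 and Creb3l3 were too low to be tested. The thioesterases Acot1 and Acot2, which release fatty acids from coenzyme A, had log2 fold changes of 1.07 and 0.98, and their near-identical sequences make the split of reads between them uncertain.

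**Figure D2:**
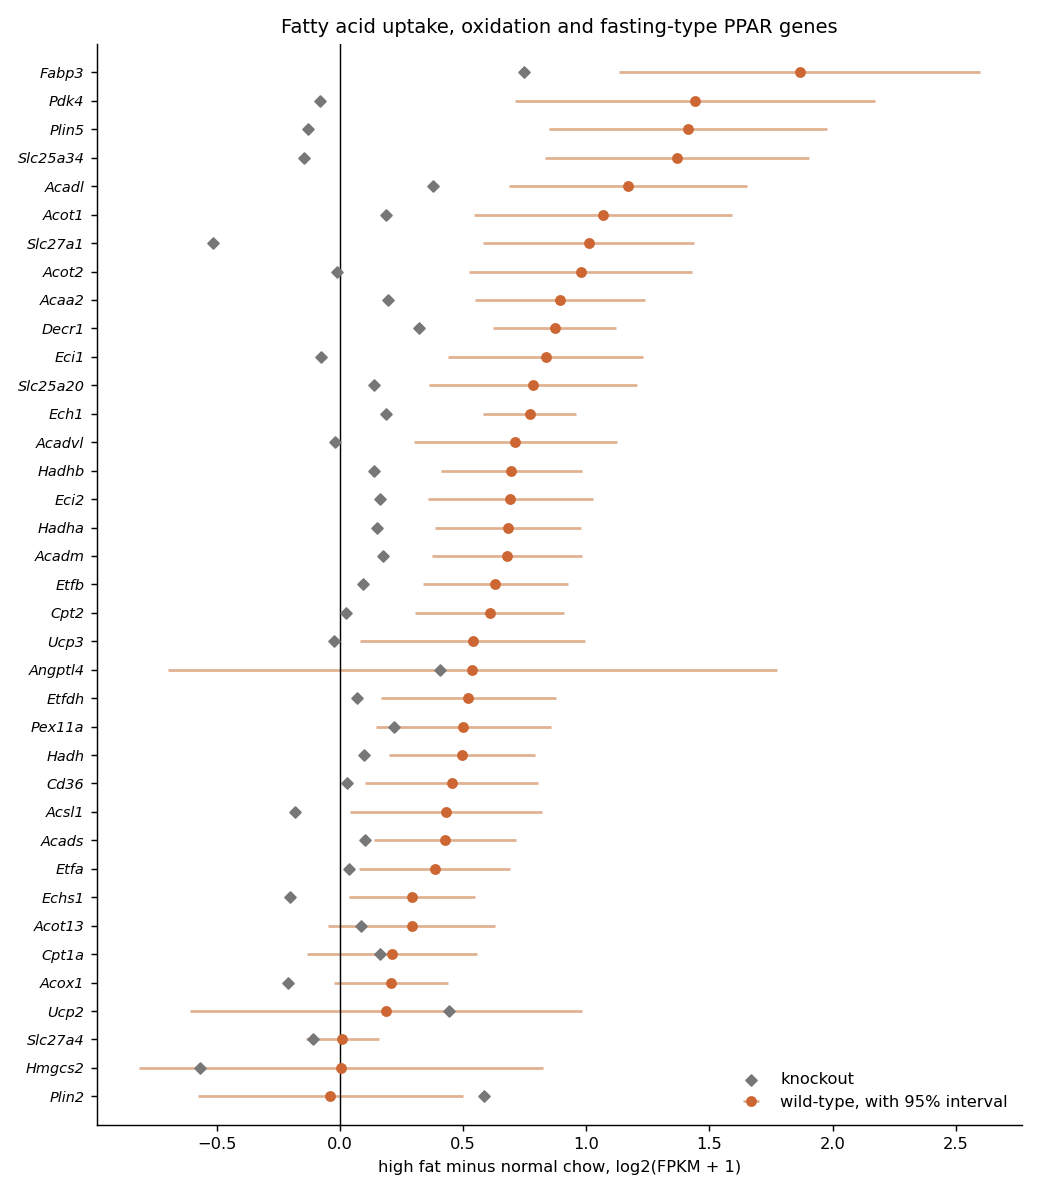
Log2 fold change, high fat minus normal chow, of the 37 tested genes of the lists of fatty acid uptake and oxidation and of fasting-type PPAR targets, in WT (orange, 95% interval from limma) and in KO mice (grey diamonds). Fabp3 lies highest at 1.87 in WT, and 36 of the 37 WT values lie above 0.

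The respiratory chain and the citric acid cycle lay above normal chow by less, and mostly through a single sample. All 32 tested genes of oxidative phosphorylation had a positive log2 fold change, with a median of 0.30. Only 3 had an unadjusted p under 0.05 (9.38%, against 8.12% of all genes), and none passed the adjusted threshold. Their summed FPKM was 24531, 19514 and 20537 in the normal chow samples and 34089, 22742 and 23534 on high fat diet. Without high fat replicate 1 the median was 0.11 and no member had an unadjusted p under 0.05. The 17 tested genes of the citric acid cycle had a median of 0.24 with all samples and 0.07 without high fat replicate 1. Idh2, the mitochondrial NADP-dependent isocitrate dehydrogenase, stood apart from the cycle with 165, 128 and 131 FPKM against 171, 274 and 232 FPKM, lowest on high fat diet in that same sample (log2 fold change 0.65 ± 0.18, SE, adjusted p = 0.216 by limma).

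The genes of glycolysis and glycogen had a median log2 fold change of -0.13, and 6 of 24 were positive. At unadjusted p under 0.05, 1 was higher and 3 were lower, against 4.42% and 3.7% of all genes. The number lower was 0 without normal chow replicate 1, 0 without high fat replicate 3 and 4 without normal chow replicate 2. The higher gene was Ldhb, the lactate dehydrogenase subunit of oxidative tissues, with 153, 151 and 131 FPKM on normal chow against 184, 256 and 201 FPKM on high fat diet (log2 fold change 0.54, adjusted p = 0.256 by limma). Of 30 genes of insulin signalling and glucose uptake, 1 was higher and 1 lower at unadjusted p under 0.05, near the background, and Slc2a4, the insulin-responsive glucose transporter, was at 266 to 317 FPKM on normal chow and at 257 to 307 FPKM on high fat diet. Tbc1d1, a Rab GTPase activating protein that restrains the movement of that transporter, was at 11.6, 13.5 and 8.96 FPKM against 28.9, 25.3 and 17.8 FPKM (log2 fold change 1.01, adjusted p = 0.153). Among regulators of mitochondrial genes, Esrrb, an orphan nuclear receptor, was at 1.602, 1.662 and 1.753 FPKM against 3.61, 3.17 and 2.75 FPKM (log2 fold change 0.64, adjusted p = 0.118), and Ppargc1a, a coactivator, was at 7.56 to 8.67 FPKM against 6.65 to 7.40 FPKM. None of the genes in these lists passed the adjusted threshold.

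Lipogenic genes were lower on high fat diet in 17 of 18 cases, with a median log2 fold change of -0.52, and 7 of the 18 had an unadjusted p under 0.05 (38.9%), against 3.7% of all genes in that direction. The median was -0.82 without normal chow replicate 1 and -0.29 without high fat replicate 1. Fasn, the fatty acid synthase, was at 7.91, 49.5 and 41.9 FPKM on normal chow and at 1.40, 6.21 and 10.6 FPKM on high fat diet (log2 fold change -2.20, adjusted p = 0.327 by limma). Scd1, the stearoyl-CoA desaturase, was at 126, 641 and 647 FPKM against 7.31, 85.6 and 342 FPKM. In both genes normal chow replicate 1 overlapped the high fat samples. Genes of white adipocytes followed the lipogenic genes only in part. The summed FPKM of the adipocyte list was 1347, 3097 and 2334 in the normal chow samples, against 1385, 1532 and 2669 with high fat feeding. For the lipogenic list the sums were 552, 1306 and 1304 against 345, 549 and 846. Within each diet replicate 1 had the lowest sum of both lists. High fat replicate 3 lay above normal chow replicate 3 in the adipocyte sum but below it in the lipogenic sum. Cfd, adipsin, a secreted product of adipocytes, was at 69.1, 469 and 328 FPKM against 2.77, 24.6 and 115 FPKM, and Adipoq, adiponectin, at 21.2, 116 and 93.8 FPKM against 1.40, 28.9 and 94.8 FPKM. The part of adipose tissue in the lipogenic values was not tested. In bulk muscle, fewer cells of a type and less RNA per cell cannot be told apart. Srebf1, a transcription factor of lipid synthesis, was at 32.2, 36.8 and 36.1 FPKM against 18.3, 28.0 and 25.7 FPKM (log2 fold change -0.55, adjusted p = 0.273). It alone of the 18 had groups that did not overlap, where 13.1% of all tested genes had such groups in either direction.

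Slow-fibre genes differed widely between samples of the same diet. Myh7, the slow myosin heavy chain, was at 71.9, 68.4 and 16.9 FPKM on normal chow and at 3.20, 138 and 111 FPKM on high fat diet. Low values in normal chow replicate 3 and high fat replicate 1 were shared by Myl2, Myl3 and Tnnc1, and the median log2 fold change of the 14 slow-fibre genes was 0.29 with all samples, 1.07 without high fat replicate 1 and -0.24 without normal chow replicate 3. Myh1, the fast IIx myosin heavy chain, was at 677, 592 and 475 FPKM against 1393, 752 and 828 FPKM (log2 fold change 0.73 ± 0.25, SE, adjusted p = 0.377 by limma), while the 14 fast-fibre genes had a median of -0.01. Mybph, a myosin binding protein of fast muscle, was at 180, 107 and 167 FPKM against 6.89, 39.9 and 93.2 FPKM, and Igfn1, a sarcomere protein, at 44.9, 27.4 and 41.8 FPKM against 3.61, 8.57 and 19.2 FPKM. Both were among the 10 largest falls by the selection rule (log2 fold changes -2.25 and -1.99, adjusted p = 0.273 and 0.144), and both were lowest in high fat replicate 1. Without that sample the log2 fold change of Mybph was -1.26.

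Among the other small heat shock proteins, Hspb6 had a log2 fold change of 0.42 and Hspb8 of -0.23. Of 7 tested members 1, Cryab, had an unadjusted p under 0.05 (14.3%, against 8.12% of all genes). Of 23 other chaperones, 2 did (8.70%), near the share of all genes, and the median was 0.08. Mstn, myostatin, which limits muscle growth, was at 57.0, 40.4 and 45.2 FPKM on normal chow and at 17.9, 34.8 and 25.2 FPKM on high fat diet (log2 fold change -0.88, adjusted p = 0.265 by limma). Klf15, a transcription factor of fasting metabolism, was at 16.1, 13.3 and 14.7 FPKM against 22.9, 18.7 and 17.8 FPKM (log2 fold change 0.41, adjusted p = 0.189). Per1, a clock gene, was at 9.11, 13.7 and 14.1 FPKM against 18.5, 25.3 and 24.9 FPKM (log2 fold change 0.86, adjusted p = 0.111). It was the 1 clock gene of 17 with an unadjusted p under 0.05 (5.88%, against 8.12% of all genes). Cat, catalase, was at 55.3 to 64.9 FPKM against 81.8 to 90.1 FPKM (log2 fold change 0.50, adjusted p = 0.169), while Gclc and Gclm, which make glutathione, had log2 fold changes of -0.24 and -0.39. The groups did not overlap in these 6 genes from Mstn to Gclm, where 13.1% of all tested genes had such groups. Genes were named partly by their unadjusted p, which favours groups that do not overlap. None of the 6 passed the adjusted threshold.

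The tendon list was higher in all 3 high fat samples. Of 19 tested members, 13 were higher at unadjusted p under 0.05 (68.4%, against 4.42% of all genes), none was lower, none passed the adjusted threshold, and the median log2 fold change was 1.25. The summed FPKM of the list was 146, 214 and 264 in the normal chow samples and 419, 748 and 620 on high fat diet, so no single sample carried it, and the median stayed between 1.12 and 1.42 with each sample left out. Tnmd, tenomodulin, a membrane protein of tendon cells, was at 0.888, 5.53 and 5.56 FPKM against 20.1, 23.5 and 23.3 FPKM (log2 fold change 2.43 ± 0.46, SE, adjusted p = 0.0906 by limma). Fmod, fibromodulin, which binds collagen fibrils, was at 6.58, 27.9 and 46.9 FPKM against 124, 247 and 162 FPKM, and Chad, the cartilage matrix protein chondroadherin, at 0.672, 3.57 and 5.203 FPKM against 18.4, 37.4 and 32.1 FPKM. Thbs4, a thrombospondin of tendon and muscle, was at 25.9, 30.6 and 37.2 FPKM against 79.7, 102 and 98.0 FPKM (log2 fold change 1.56, adjusted p = 0.0802). Scx, the tendon transcription factor scleraxis, was at 3.23 to 4.10 FPKM against 6.06 to 8.89 FPKM. The amount of tendon in each piece of muscle was not recorded in the labels, and its part in these values was not tested.

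Col1a1 and Col1a2, the chains of the main collagen of tendon and skin, were at 33.9, 64.4 and 90.9 FPKM against 123, 108 and 146 FPKM and at 64.8, 108 and 139 FPKM against 151, 177 and 191 FPKM. Col3a1, of soft connective tissue, overlapped between diets with a log2 fold change of -0.51. Of 27 tested collagens, 9 were higher and 5 lower at unadjusted p under 0.05, against 4.42% and 3.7% of all genes, the median was -0.09, and none passed the adjusted threshold. The number lower was 0 without normal chow replicate 3, 0 without high fat replicate 1 and 9 without high fat replicate 3, and the median was 0.12 without high fat replicate 1. Thbs1, a matricellular protein, was at 1.71, 2.11 and 2.37 FPKM against 3.09, 10.1 and 9.17 FPKM (log2 fold change 1.34, adjusted p = 0.135 by limma).

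Genes of neutrophils and marrow made up most of the 10 largest rises by the selection rule. Of 26 listed genes, 13 were tested, 12 of these were higher at unadjusted p under 0.05 (92.3%, against 4.42% of all genes), and the median log2 fold change was 2.92. Of the 26, 2, 7 and 3 reached 1 FPKM in the normal chow samples and 22, 8 and 14 in the high fat samples. A member could enter the test through the high fat samples alone, so this share can be partly set by the filter. S100a8 and S100a9, the subunits of calprotectin, were at 0.705, 13.8 and 2.21 FPKM against 522, 59.0 and 197 FPKM and at 1.09, 7.61 and 2.37 FPKM against 378, 39.9 and 148 FPKM (log2 fold changes 5.41 and 5.07, adjusted p = 0.0802 and 0.0906 by limma). Ngp and Camp, granule proteins of maturing neutrophils, were below 2.24 FPKM in each normal chow sample and at 106, 10.2 and 38.2 FPKM and 94.6, 9.08 and 34.9 FPKM on high fat diet. Retnlg, Lcn2 and Ltf followed the same order of samples, and with the 4 genes above they made up 7 of the 10 largest rises by the selection rule.

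No gene of the neutrophil list passed the adjusted threshold with all samples. The summed FPKM was 5.13, 32.8 and 8.63 in the normal chow samples and 1253, 136 and 487 on high fat diet, and high fat replicate 1 held 66.8% of the high fat sum. The median was 2.21 without high fat replicate 1 and 3.64 without high fat replicate 2, and in the latter case 10 of the 13 genes passed the adjusted threshold. Genes of early granule formation that are used in marrow were present too, with Mpo, myeloperoxidase, at 4.59, 0.505 and 3.45 FPKM and Elane, neutrophil elastase, at 4.05, 0.365 and 3.20 FPKM on high fat diet, against no more than 0.189 FPKM on normal chow. Of 6 tested erythroid genes, 3 were higher at unadjusted p under 0.05 (50%, against 4.42% of all genes), none was lower and none passed the adjusted threshold. The α-globin row, which made up most of the summed level of that list, was at 720, 387 and 587 FPKM against 2363, 1075 and 1731 FPKM, and Alas2, the erythroid enzyme of haem synthesis, at 4.43, 2.33 and 4.22 FPKM against 17.7, 8.98 and 13.2 FPKM (log2 fold changes 1.581 and 1.603, adjusted p = 0.119 and 0.132 by limma). Whether the marrow genes came from marrow, blood or cells in the muscle was not tested.

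Among the WT samples, lymphoid genes were high in a single normal chow sample. The summed FPKM of 25 T cell genes was 20.7, 117 and 15.0 in the normal chow samples and 12.7 to 17.2 on high fat diet, and that of 21 B cell genes was 6.14, 119 and 8.29 against 9.09 to 15.3. Normal chow replicate 2 held 76.6% of the normal chow sum of the T cell genes and 89.2% of that of the B cell genes. Cd79a, a chain of the B cell receptor complex, was at 16.8 FPKM there and at no more than 2.30 FPKM in the other 5 samples. Ccl19, a chemokine of lymph nodes, was at 28.1 FPKM there against at most 3.24 FPKM, and Ucp1, the uncoupling protein of brown fat, at 16.2 FPKM against at most 0.067 FPKM. The median log2 fold change of the T cell genes was -0.60 with all samples and 0.06 without that sample, and that of the B cell genes went from -0.48 to 0.22. The brown fat gene Cidea was at 29.8 FPKM in the same sample and at no more than 2.63 FPKM in the other 5 WT samples. The brown fat list as a whole did not stand out there. Its 10 genes summed to 1621, 1364 and 1281 FPKM on normal chow and to 2008, 1551 and 1501 FPKM on high fat diet. In KO mice the T cell sum was 126, 19.2 and 125 FPKM on normal chow and 14.4 to 19.3 FPKM on high fat. That of the B cell genes was 135, 8.66 and 132 FPKM against 10.1 to 10.6 FPKM. High lymphoid values were thus also seen in KO normal chow samples.

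Of 23 tested macrophage genes, 4 were lower at unadjusted p under 0.05, against 3.7% of all genes, and none was higher, with a median log2 fold change of -0.56. The median was -0.05 without normal chow replicate 2 and -0.19 without high fat replicate 1. Retnla, a resistin-like protein of alternatively activated macrophages, was at 166, 181 and 163 FPKM on normal chow and at 26.6, 99.8 and 107 FPKM on high fat diet (log2 fold change -1.35, adjusted p = 0.32 by limma). Cd209b, a lectin of macrophages, was at 4.38, 14.1 and 4.66 FPKM against 0.540, 3.14 and 1.92 FPKM, and Cd209d at 9.44, 9.66 and 7.86 FPKM against 1.01, 7.26 and 3.06 FPKM. Cyp2e1, a cytochrome of liver and adipose tissue, had the largest fall by the selection rule, at 17.7, 72.5 and 43.7 FPKM against 0.971, 6.13 and 15.5 FPKM (log2 fold change -2.68, adjusted p = 0.265). Adora1, an adenosine receptor, was at 12.5, 10.2 and 13.1 FPKM against 0.870, 3.27 and 9.26 FPKM. High fat replicate 1 was the lowest of all samples in each of the genes of this paragraph, and without it the log2 fold changes of Retnla, Cd209d and Adora1 were -0.71, -0.78 and -0.96 in place of -1.35, -1.29 and -1.57.

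Keratins and hair proteins were present in high fat replicate 2. Their summed FPKM over 100 genes was 4.33 to 5.57 in the normal chow samples and 5.68, 159 and 5.91 on high fat diet, and that sample held 93.2% of the high fat sum. Krt71, a keratin of the hair root sheath, was listed at 13.8 FPKM there and at 0 in the other 5 samples. Only 4 of the 100 keratin genes reached the filter and were tested. Bglap and Bglap2, the osteocalcin genes of bone-forming cells, were at 21.5 and 17.1 FPKM in high fat replicate 3 and at no more than 0.151 FPKM elsewhere. Their sequences are nearly the same, so the split between them is uncertain. Schwann cell genes summed to 117, 120 and 527 FPKM in the normal chow samples and to 155, 252 and 228 FPKM on high fat diet. In KO mice they summed to 426, 494 and 319 FPKM on normal chow and to 259, 214 and 165 FPKM on high fat.

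**Figure D3:**
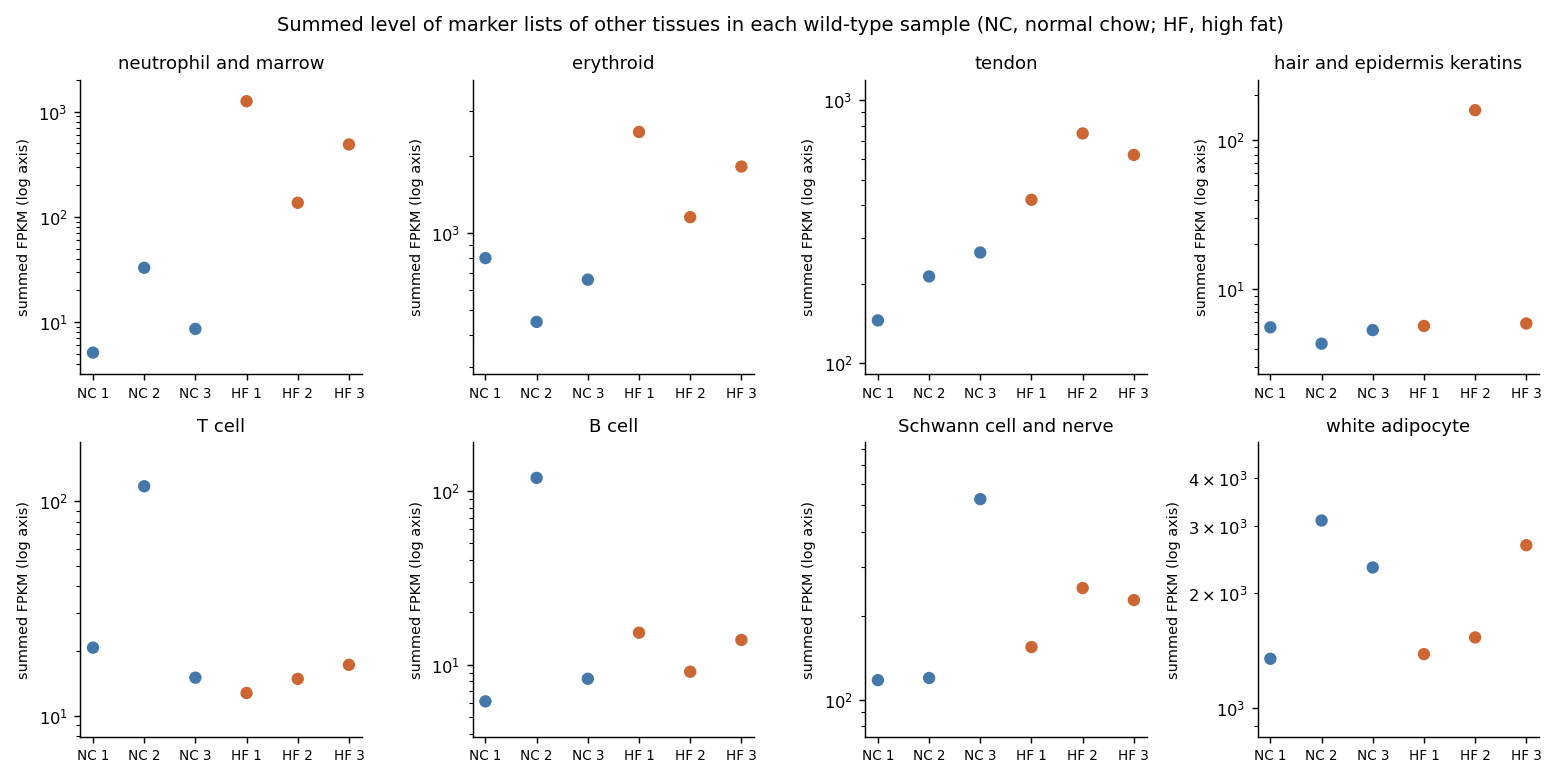
Summed FPKM of 8 marker lists in each of the 6 WT samples, on log axes that differ between panels. Neutrophil and marrow, erythroid and tendon genes are above normal chow in all 3 high fat samples, while the T and B cell lists stand out in normal chow replicate 2, the keratins in high fat replicate 2 and the Schwann cell genes in normal chow replicate 3.

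Changes carried by a single sample were counted over all genes. Between the group means, 355 genes with a mean of at least 1 FPKM in the higher group differed 2-fold or more, 168 higher and 187 lower on high fat diet. In 141 of the 355 (39.7%) the difference dropped under 1.5-fold when the highest sample of the higher group was left out. These were 39 of the 168 higher genes (23.2%) and 102 of the 187 lower genes (54.5%). Normal chow replicate 2 carried 97 of the 141, high fat replicate 2 carried 26 and high fat replicate 3 carried 8. High fat replicate 1 carried 5, normal chow replicate 3 carried 3 and normal chow replicate 1 carried 2. None of the 12 genes past the adjusted threshold was among the 141.

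Of the listed genes among the 141, normal chow replicate 2 carried 13 T cell, 10 B cell, 4 lymph node and 3 brown fat genes, and high fat replicate 2 carried 9 keratin and 3 immediate early genes. Fos, an immediate early transcription factor, was at 79.9 FPKM in high fat replicate 2 and at 5.51 to 41.5 FPKM in the other 5, and Egr1 at 53.7 FPKM against 4.72 to 21.3 FPKM. Pck1, a gluconeogenic enzyme also used by adipocytes, was at 41.5 FPKM in normal chow replicate 2. Sln, sarcolipin, which lowers the efficiency of the calcium pump, was at 58.9 FPKM in high fat replicate 3 and at 4.56 to 18.4 FPKM elsewhere. Snora68, a small nucleolar RNA gene, was at 1157 FPKM in high fat replicate 2 and listed at 0 in the other 5.

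**Figure D4:**
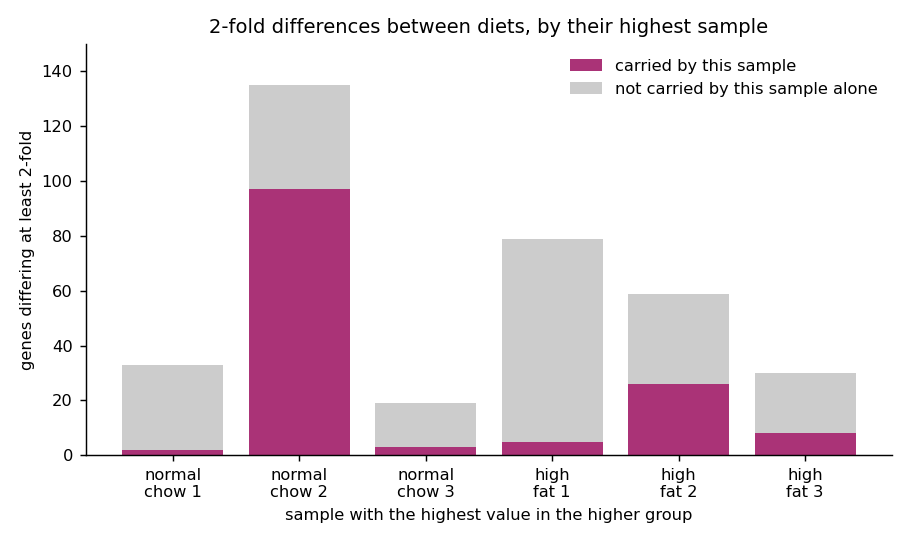
Number of genes differing at least 2-fold between diets, by the sample that had the highest value in the higher group, split into those whose difference dropped under 1.5-fold without that sample (purple) and the rest (grey). Normal chow replicate 2 carried 97 of its 135 genes, and high fat replicate 1 carried 5 of its 79.

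**Figure D5:**
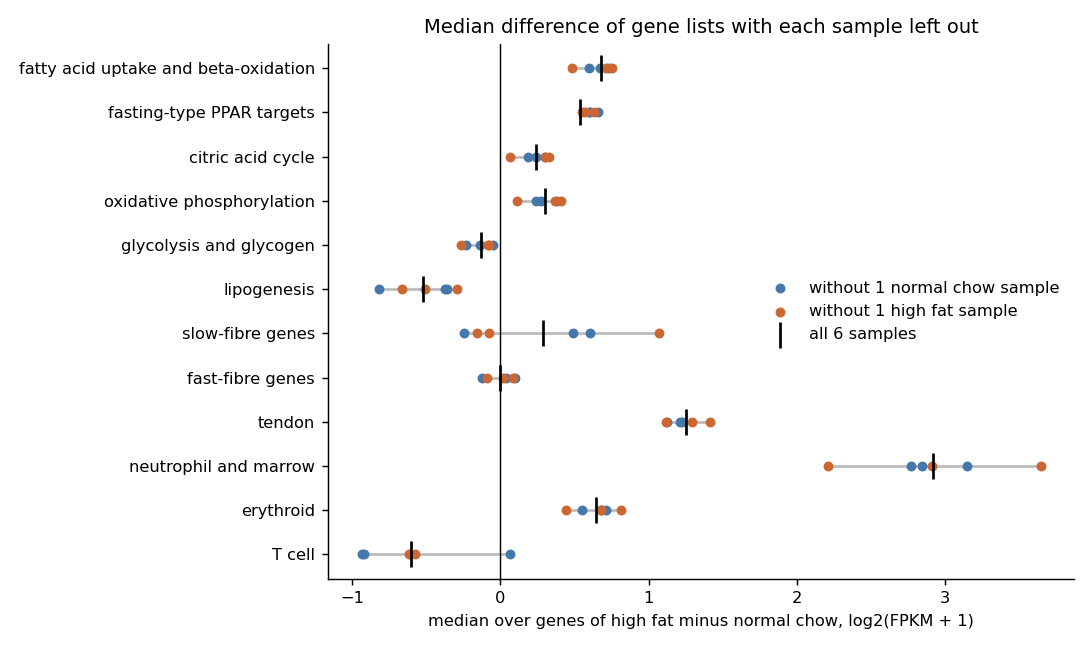
Median log2 fold change, high fat minus normal chow, of 12 gene lists with all 6 WT samples (black bar), with 1 normal chow sample left out (blue) and with 1 high fat sample left out (orange). Fatty acid, PPAR, tendon, neutrophil and erythroid lists stay above 0, while the slow-fibre and T cell lists cross it.

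The same genes were compared between diets in KO mice, with a test of the difference between the genotypes. No gene passed the adjusted threshold for this interaction by limma, and 746 (6.25%) had an unadjusted p under 0.05. The 12 genes that differed in WT mice had interaction p-values of at least 0.408 after adjustment. BC048679 was at 3.84, 3.72 and 7.19 FPKM in KO mice on normal chow and at 9.81, 19.3 and 17.1 FPKM on high fat diet, or 1.47 as a log2 fold change beside 2.93 in WT mice (difference -1.46 ± 0.36, SE, adjusted p = 0.503). Cd28 had a log2 fold change of -0.68 in KO mice, Chodl of 0.43 and Decr1 of 0.32, each in the direction seen in WT mice, with unadjusted p = 0.00153, 0.0124 and 0.0155 by limma. Ech1 had 0.19, Gadl1 0.21 and Rhbdl3 -0.08. In KO mice, 0 genes passed the adjusted threshold for diet and 1349 (11.3%) had an unadjusted p under 0.05.

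Of the 23 genes of fatty acid uptake and oxidation, 16 had an interaction p under 0.05 without adjustment, against 6.25% of all genes, and none after it. Their median log2 fold change was 0.68 in WT and 0.09 in KO mice. The summed FPKM in KO mice was 2937, 2874 and 4090 in the normal chow samples and 3319, 3927 and 4049 on high fat diet, so the KO groups overlapped through normal chow replicate 3, the sample with the high Mir324 row. Without that sample the KO median was 0.13 and 10 of the 23 had an unadjusted interaction p under 0.05. Slc27a1 had the opposite sign in KO mice, with a log2 fold change of -0.51 (interaction -1.52 ± 0.27, SE, adjusted p = 0.408 by limma). All 13 tested neutrophil genes had an unadjusted interaction p under 0.05, and 12 did without the KO sample normal chow replicate 3. Members could enter the test through the WT high fat samples alone, and the interaction uses those same samples. This count can therefore be partly set by the filter. The median of these genes in KO mice was -0.48. Their list had a summed FPKM of 150, 19.5 and 52.8 in the KO normal chow samples and 48.5, 20.03 and 14.02 on high fat diet. The tendon list had a median of 0.42 in KO mice, and 4 of its 19 tested genes had an unadjusted interaction p under 0.05, or 0.62 and 2 genes without the KO sample normal chow replicate 3.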

How the data were processed

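Total RNA of proximal hind limb muscle was sequenced by the authors from TruSeq libraries, and they deposited 1 table of FPKM values per sample. The submitters' processing notes name TopHat2 2.0.8b, Cuffdiff 2.1.1 and the mm10 build. The annotation and the kind of library scaling are not given in the sources used here. Each table held 23179 rows, and 158 symbols had several rows, of which that with the highest mean entered. Read counts are unknown. The KO sample normal chow replicate 3 stood apart through its Mir324 row, with 96.4% of its FPKM total in its 10 highest genes, and stayed in the fit. WT FPKM totals ran from 544257 to 691621, and the steps between low values put relative depth at 0.986 to 1.197.

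Samples were grouped by title. Genes with at least 1 FPKM in at least 3 of 12 samples were taken to log2(FPKM + 1) and fitted in limma 3.58.1 (R 4.3.3) with 4 group means, 8 residual degrees of freedom and an intensity trend, with Benjamini-Hochberg adjustment over all tested genes. All 12 samples entered the fit and shared 1 estimate of the spread. P-values measure the spread between these samples, whose sources within a group are not described. The fit was also run on simulated data, and the outcome is not reported here. Members, gene lists and tests were chosen with earlier results of these data known. Named genes were Cryab and Hspb2, all genes past the threshold, the 10 largest rises and falls among genes with unadjusted p under 0.05, groups that did not overlap and a mean of at least 1 FPKM, and, in each list, the 4 highest members and those with unadjusted p under 0.01. For changes carried by a sample they were the 5 highest per sample. Some genes that the rule names are not reported here. Other members of the lists of fatty acid use and of other tissues were named as defining or contrasting members after their values were seen. Positions are from GENCODE M21 and upstream windows from RefSeq, read in Python 3.11.15.

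Alternatives were a pseudocount of 0.1, 2 other filters, size factors, quantile normalization, a replicate block, only the 6 WT samples, robust moderation, summed rows, each WT sample left out and, chosen after seeing the data, the KO sample normal chow replicate 3 left out.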

Additional observations from a re-analysis of the deposited data

How the results depend on the processing

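In place of 12 genes, 3 passed the adjusted threshold when only the 6 WT samples were fitted, 2 of them among the 12, and 24 without the KO sample normal chow replicate 3, all 12 among them, an alternative chosen after seeing the data. With the replicate number as a block within genotype, 1 gene passed, BC048679 (adjusted p = 0.0427 by limma), and no gene passed for the interaction, as with a pseudocount of 0.1. The interaction gave 1 gene without a filter and 1 without normal chow replicate 3. Same-numbered WT samples deviated together with correlations of 0.387, -0.092 and 0.219, and not every sample correlated best with its own number. With 3 samples a group, these values cannot decide whether the numbers pair the samples. With each WT sample left out in turn, between 1 and 32 genes passed, and of the 32 found without high fat replicate 2, 9 were among the 12. Normalization, pseudocount, filters, robust moderation and summed rows gave 9 to 12 genes, sharing 8 to 12 with the 12. Counting as carried by a sample only genes whose highest sample held at least 90% of its group's sum gave 78 genes in place of 141. The number of lists of at least 5 tested genes with no fewer than 50% of members at unadjusted p under 0.05 was 6, and 5 to 8 with samples left out. No named gene among the 12, the targeted pair and the 10 largest rises and falls reversed its direction with an unadjusted p under 0.05. The causes of these changes were not tested. With 3 samples a group and unknown read counts, small changes of low genes are the least certain.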
